A study of Mus musculus with 8 samples.

Results

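Fatty acids are built in the cytosol from acetyl-CoA, and 10 genes of this route were followed in the kidneys of diabetic mice given recombinant fibroblast growth factor 4 (rFGF4) or none. They were the rows of the deposited gene table named *Acly*, *Me1*, *Acaca*, *Acacb*, *Fasn*, *Elovl6*, *Scd1*, *Scd2*, *Srebf1* and *Mlxipl*, that is 10 of its 55401 genes, each present once. The series holds 8 kidney RNA libraries, 1 per mouse, from 4 mice labelled as the *db*/*db* model (mice 2, 3, 4 and 5, called model mice here) and 4 labelled as treated with rFGF4 (mice 1, 2, 3 and 5). The *db*/*db* strain of the study is male C57BLKS/J carrying the *lepr* db allele on both chromosomes, whereas the article describes the sequenced animals as made diabetic with streptozotocin, and the files do not settle which was used. In both models of the study, rFGF4 at 1 mg/kg or phosphate-buffered saline was injected into the peritoneum on alternate days for 8 weeks, and no separate regimen is given for the sequenced mice. Treatment of *db*/*db* mice began at an age of 12 weeks, whereas for streptozotocin the article gives differing ages at the start. No healthy mice were sequenced, so every value below is from a diabetic kidney.

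In this pathway, ATP citrate lyase (*Acly*) makes cytosolic acetyl-CoA, the acetyl-CoA carboxylases (*Acaca* and *Acacb*) turn it into malonyl-CoA, and fatty acid synthase (*Fasn*) joins the units into palmitate with NADPH, part of which malic enzyme (*Me1*) supplies. *Elovl6* then lengthens the chain, and the stearoyl-CoA desaturases (*Scd1* and *Scd2*) insert a double bond. *Srebf1* encodes SREBP1, which responds to insulin, and *Mlxipl* encodes ChREBP, which responds to glucose. Both are transcription factors of lipogenic genes. In the kidney, lipid stored in tubule cells is a known feature of diabetic disease.

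The values were FPKM (fragments per exon length and mapped reads), and they can be compared between genes because they are per length. A gene entered the limma test, run on log2(FPKM + 1), if 4 libraries or more had 0.5 FPKM or above, and all 10 genes were among the 15150 that met this filter. The summed FPKM was 389407 to 529835 in the rFGF4-treated mice and 481321 to 552604 in the model mice, and mitochondrial transcripts made up 19.0% to 36.0% and 24.4% to 38.4% of it. No read counts were at hand, so the counting error of a value is unknown. Markers of the proximal tubule, distal nephron and podocyte were present in every library. rFGF4 mouse 1 stood apart from the other mice in its 6 proximal tubule markers, which summed to 241 FPKM against 733 to 1288 in the other 7 mice. In bulk tissue, fewer cells of a type and less RNA per cell cannot be told apart.

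The promoters of 3 of the genes are shown because they carry the extremes of the comparison that follows, *Fasn* and *Acly* with the smallest p and *Acacb* with the lowest log2 fold change in the fit of all 8 mice. Each is the run of 250 bases before a transcription start in RefSeq on GRCm38.p6, given 5′ to 3′ on the strand of the gene. Of the 10 genes, 8 matched an entry, with 12 windows in all. Capitals mark the NF-Y box CCAAT, the GC box GGGCGG bound by Sp1, the E-box CACGTG, the sterol regulatory element TCACNCCAC bound by SREBP, and the TATA box TATAAA, each searched on both strands. The *Fasn* window is chr11:120824548-120824797 on the minus strand, the *Acly* window is chr11:100528001-100528250 on the minus strand and the *Acacb* window is chr5:114165268-114165517 on the plus strand, at a start inside the gene as GENCODE draws it.
Fasn: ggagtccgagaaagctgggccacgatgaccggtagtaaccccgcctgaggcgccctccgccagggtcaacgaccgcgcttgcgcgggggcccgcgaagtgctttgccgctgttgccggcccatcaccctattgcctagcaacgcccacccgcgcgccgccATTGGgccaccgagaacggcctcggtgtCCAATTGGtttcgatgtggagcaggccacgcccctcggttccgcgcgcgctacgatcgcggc
Acly: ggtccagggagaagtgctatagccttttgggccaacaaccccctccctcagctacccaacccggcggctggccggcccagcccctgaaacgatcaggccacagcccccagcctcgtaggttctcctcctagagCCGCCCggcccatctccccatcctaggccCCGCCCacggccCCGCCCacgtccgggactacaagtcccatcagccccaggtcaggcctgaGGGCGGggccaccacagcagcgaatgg
Acacb: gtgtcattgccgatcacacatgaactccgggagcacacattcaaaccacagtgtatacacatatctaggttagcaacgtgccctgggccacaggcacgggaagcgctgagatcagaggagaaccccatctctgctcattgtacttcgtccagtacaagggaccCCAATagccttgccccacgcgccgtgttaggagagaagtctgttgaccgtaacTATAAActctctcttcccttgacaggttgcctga
The *Fasn* window held 3 NF-Y boxes, at 90, 62 and 59 bases before the start, of which the last 2 overlap on opposite strands. An NF-Y box was found in 33.8% of the 32851 RefSeq windows of the same length. The *Acly* window held 4 GC boxes, a motif of 32.7% of all windows, and the *Acacb* window held 1 NF-Y box and a TATA box, which 12.4% of windows have. The sterol regulatory element as spelled was in 1.05% of all windows and in 1 window of the 10 genes, that of a start of *Mlxipl* inside the gene (chr5:135106641-135106890). The E-box, present in 6.02% of windows, was also in 1, at the other *Mlxipl* start. These matches describe the letters of the windows and were not measured as binding.

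*Fasn* and *Acly* had higher means in the kidneys of rFGF4-treated mice. Both passed only the unadjusted test (limma, p under 0.05), and the other 8 genes did not pass it. *Fasn* rose by 0.67 and *Acly* by 0.46 on the log2(FPKM + 1) scale, with unadjusted p under 0.05 (limma), and in both genes rFGF4 mouse 5 lay within the range of the model mice. With edgeR, the study called a gene changed if its unadjusted p was below 0.05 and its fold change reached 1.5 upwards or 0.67 downwards. Here this threshold was applied to the limma fit on log2(FPKM + 1), and of the 10 genes *Fasn* alone passed it. Over all tested genes, 1.53% passed that threshold, 1.09% with higher and 0.442% with lower values after rFGF4, and 4.62% had an unadjusted p under 0.05, 3.56% higher and 1.06% lower. The 165 higher and 67 lower genes at the threshold became 93 and 83 when libraries were brought to a shared median ratio, and 279 and 43 with scaling to the total without mitochondrial transcripts. No gene of the 15150 had an adjusted p under 0.05 (limma, Benjamini-Hochberg; smallest 0.918), beside 700 at an unadjusted p under 0.05. The median log2 fold change of the 10 genes was 0.21 against 0.086 for all tested genes. With 1 mouse left out it ran from 0.13 (without model mouse 3) to 0.28 against 0.010 (without rFGF4 mouse 1) to 0.15 (without model mouse 5), and with the median-ratio scaling it was 0.085 against -0.012. In the fit of all mice 8 of 10 were above 0 where 67.1% of tested genes were. Under those scalings 7 and 9 of the 10 were above 0, beside 47.3% and 77.8% of tested genes. In none of the 10 did the 4 mice of one group all lie above those of the other, a separation found in 3.33% of tested genes, 2.66% with the treated mice above.

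**Figure D1:**
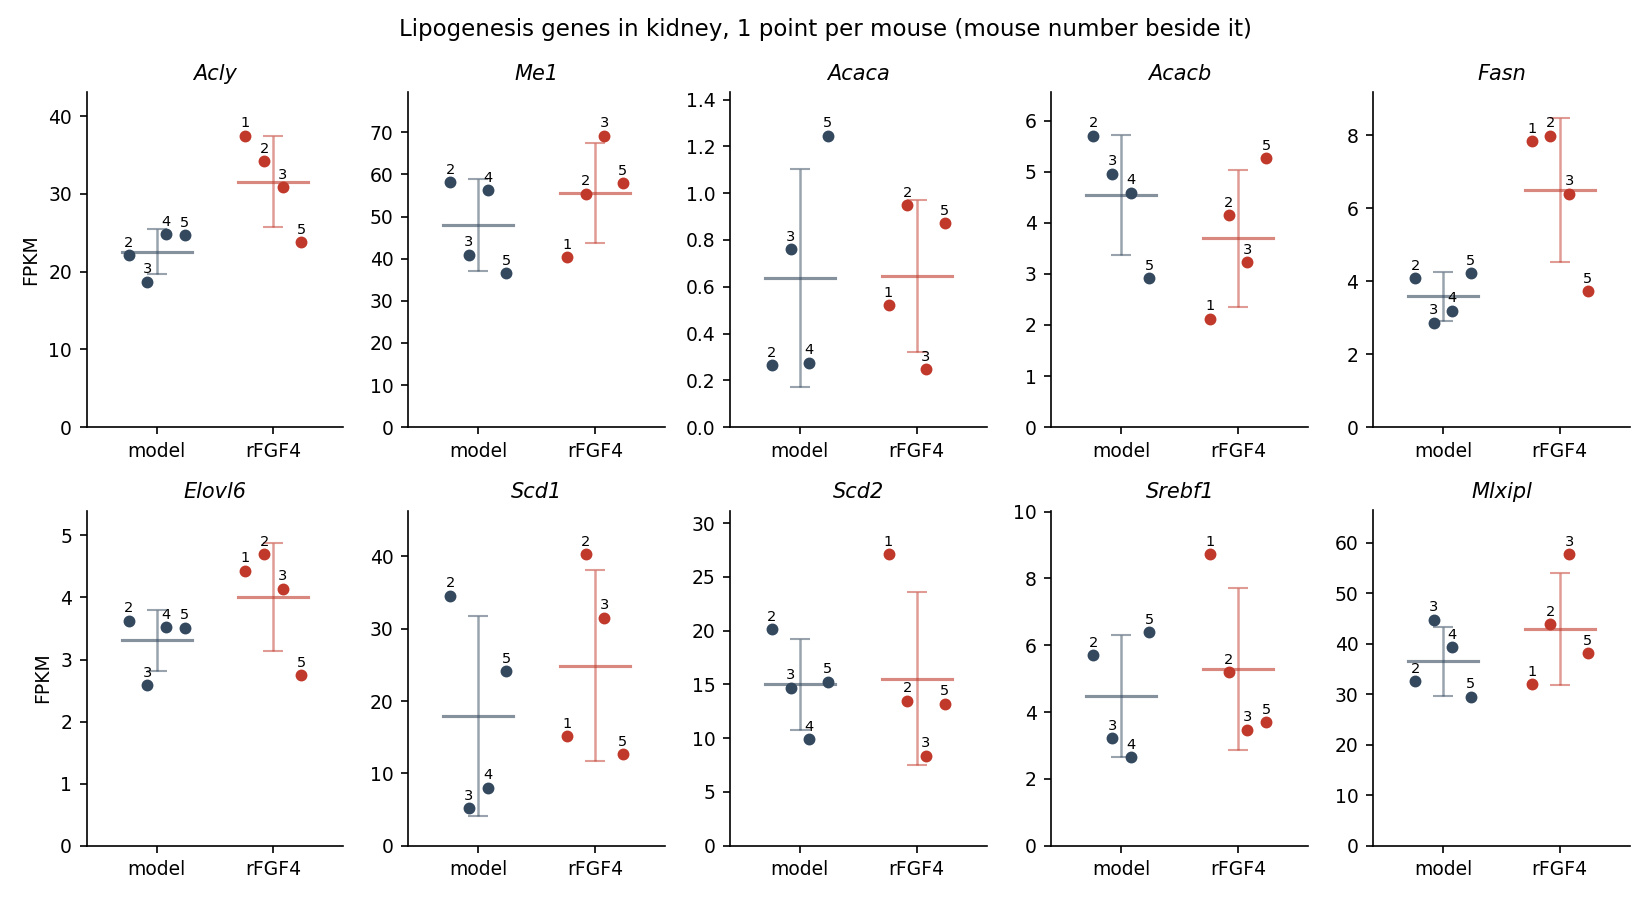
FPKM of the 10 lipogenesis genes in each mouse (vertical axes start at 0 and differ between panels), for 4 model and 4 rFGF4-treated mice, with the mouse number beside each point and the group mean and SD as lines. For *Fasn*, rFGF4 mice 1, 2 and 3 sit between 6.39 and 7.98, above the model mice at 2.86 to 4.22, and rFGF4 mouse 5 sits at 3.73.

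*Fasn* (ENSMUSG00000025153; chromosome 11, 120805846 to 120824547 on GRCm38) had 7.84, 7.98, 6.39 and 3.73 FPKM in rFGF4 mice 1, 2, 3 and 5 and 4.07, 2.86, 3.19 and 4.22 in model mice 2, 3, 4 and 5. The first 3 treated mice lay above every model mouse, and the fourth lay among them. The means were 6.49 ± 1.97 (SD, n = 4) and 3.59 ± 0.665 (SD, n = 4), and the log2 fold change was 0.67 with a standard error of 0.23 (limma, unadjusted p = 0.0165, adjusted p = 0.918). A two-sided exact permutation test over the mice gave p = 0.0857, where 4 mice against 4 allow no p below 0.0286. Its log2 fold change fell to 0.56, under the fold of the threshold, with the median-ratio scaling, and it was 0.58 without rFGF4 mouse 1 and 0.57 without rFGF4 mouse 2. In the 6 mice left without rFGF4 mouse 1 and model mouse 4 it was 0.54, with an unadjusted p of 0.0896 (limma).

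*Acly* (ENSMUSG00000020917; chromosome 11, 100476353 to 100528000) had 37.5, 34.2, 30.9 and 23.8 FPKM in rFGF4 mice 1, 2, 3 and 5 and 22.1, 18.7, 24.8 and 24.7 in model mice 2, 3, 4 and 5. As for *Fasn*, only rFGF4 mouse 5 was within the model range. The means were 31.6 ± 5.84 (SD, n = 4) and 22.6 ± 2.87 (SD, n = 4), and they differed by 0.46 on the log2 scale with a standard error of 0.16 (limma, unadjusted p = 0.0226, adjusted p = 0.918; two-sided exact permutation test, p = 0.0857). Its unadjusted p was 0.05 or more without rFGF4 mouse 1, rFGF4 mouse 2 or model mouse 3, with log2 fold changes of 0.37, 0.41 and 0.37, and without rFGF4 mouse 1 and model mouse 4 together (0.42; limma, unadjusted p = 0.0557). Both genes kept higher values after rFGF4 in every alternative that was run.

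The mice also differed in the share of mitochondrial transcripts, which was 19.0%, 24.7%, 29.8% and 36.0% in rFGF4 mice 1, 2, 3 and 5. It was 38.4%, 34.2%, 37.2% and 24.4% in model mice 2, 3, 4 and 5. rFGF4 mouse 5 had the highest share and the lowest *Fasn* of its group, and model mouse 5 the lowest share and the highest *Fasn*. The other mice did not all follow this order. Model mouse 2 had the highest share and 4.07 FPKM of *Fasn*, above the 2.86 of model mouse 3 and the 3.19 of model mouse 4. The part of this share in the results was not tested. With each library scaled to its total without mitochondrial transcripts, the log2 fold change was 0.76 for *Fasn* and 0.55 for *Acly*. Without rFGF4 mouse 1 and model mouse 5 together, *Fasn* was at 0.65 (limma, unadjusted p = 0.0423) and *Acly* at 0.42 (limma, unadjusted p = 0.0513).

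**Figure D2:**
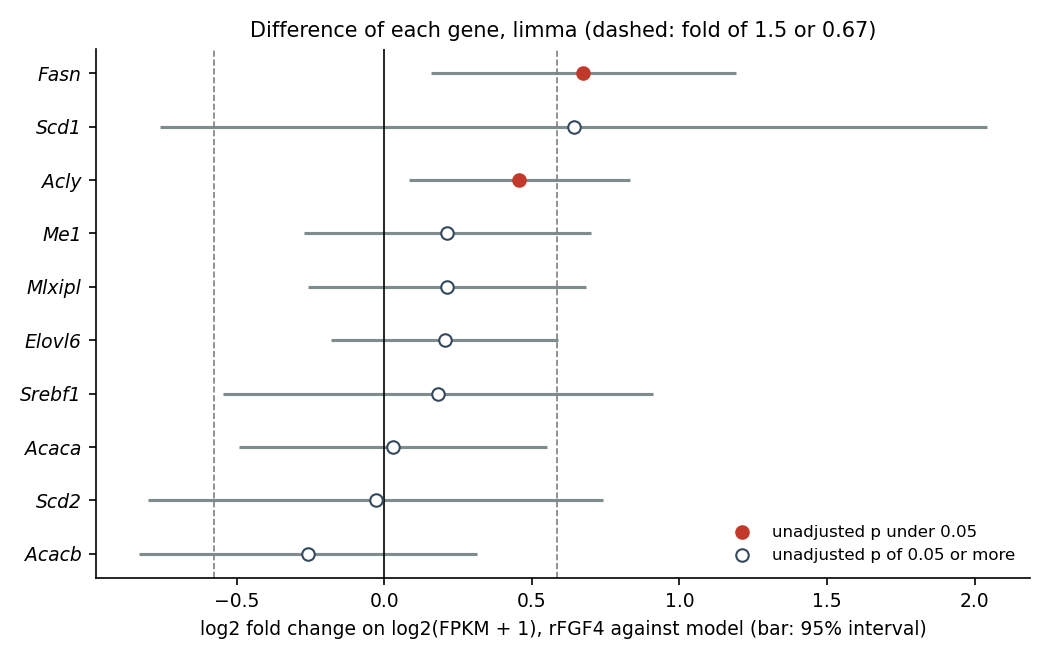
Log2 fold change of each of the 10 genes on the log2(FPKM + 1) scale (horizontal axis, rFGF4-treated against model mice) with its 95% interval from limma, and dashed lines at folds of 1.5 and 0.67. The intervals of *Fasn* (0.16 to 1.19) and *Acly* (0.082 to 0.83) lie above 0, and that of *Scd1* is the widest, from -0.76 to 2.04.

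The carboxylases, which commit acetyl-CoA to fatty acid synthesis, did not pass the test. *Acacb*, whose product sits at the mitochondrial surface and makes the malonyl-CoA that restrains fatty acid oxidation, had the lowest log2 fold change of the 10, -0.26 (95% interval -0.83 to 0.31; limma, unadjusted p = 0.329). Without rFGF4 mouse 1 it was -0.079, and *Scd2*, at -0.32, was then the lowest, and without model mouse 5 *Acacb* was at -0.42. The FPKM of *Acacb* was 2.13, 4.15, 3.23 and 5.26 in rFGF4 mice 1, 2, 3 and 5 and 5.70, 4.96, 4.59 and 2.92 in model mice 2, 3, 4 and 5. rFGF4 mouse 1 and model mouse 5 were the lowest of their groups, and the groups overlapped over most of their range. *Acaca*, the cytosolic carboxylase, was the least abundant gene, with 0.522, 0.948, 0.248 and 0.870 FPKM in rFGF4 mice 1, 2, 3 and 5 and 0.265, 0.760, 0.276 and 1.25 in model mice 2, 3, 4 and 5. rFGF4 mouse 3 and model mice 2 and 4 had the lowest values, and its log2 fold change was 0.029 (95% interval -0.49 to 0.55). It turned below 0 in 4 of the 8 fits that left out 1 mouse, was 0.20 without model mouse 5, and was 0.12 with a pseudocount of 0.1. *Acacb* exceeded *Acaca* in all 8 mice, by 4.07-, 4.38-, 13.0- and 6.05-fold in rFGF4 mice 1, 2, 3 and 5 and by 21.5-, 6.53-, 16.6- and 2.34-fold in model mice 2, 3, 4 and 5. The groups did not differ in this ratio beyond the spread of the mice (two-sided exact permutation test on its log2, p = 0.6).

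*Me1*, which yields NADPH from malate, was the most abundant of the 10 genes. Its FPKM was 40.3, 55.4, 69.2 and 57.8 in rFGF4 mice 1, 2, 3 and 5 and 58.2, 40.9, 56.2 and 36.5 in model mice 2, 3, 4 and 5. Only rFGF4 mouse 3 was above all model mice. The log2 fold change was 0.21 (95% interval -0.27 to 0.70; limma, unadjusted p = 0.343), and it was 0.36 without rFGF4 mouse 1, 0.095 without model mouse 5 and 0.085 with the median-ratio scaling.

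Among the genes that lengthen and desaturate the chain, *Elovl6* had its treated mice 1, 2 and 3 highest, as *Fasn* did. *Elovl6* had 4.43, 4.70, 4.14 and 2.75 FPKM in rFGF4 mice 1, 2, 3 and 5 and 3.62, 2.58, 3.52 and 3.51 in model mice 2, 3, 4 and 5. rFGF4 mice 1, 2 and 3 lay above every model mouse and rFGF4 mouse 5 below 3 of them, and the log2 fold change was 0.20 (95% interval -0.18 to 0.59; limma, unadjusted p = 0.256). It was 0.34 without rFGF4 mouse 5 (limma, unadjusted p = 0.0481) and 0.12 without model mouse 3 (limma, unadjusted p = 0.518).

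*Scd1*, the desaturase that dominates in liver and fat, varied most between mice. Its FPKM was 15.1, 40.3, 31.5 and 12.6 in rFGF4 mice 1, 2, 3 and 5 and 34.6, 5.18, 8.01 and 24.1 in model mice 2, 3, 4 and 5. High and low mice occurred in both groups, with a 7.78-fold range over the 8 mice, and its SD on the log2 scale was larger than that of 95.8% of tested genes. The log2 fold change of 0.64 therefore had a standard error of 0.61 (limma, unadjusted p = 0.323; two-sided exact permutation test, p = 0.400). It ran from 0.22 without model mouse 3 to 1.06 without model mouse 2. *Scd2*, the desaturase known from brain, had 27.1, 13.5, 8.37 and 13.2 FPKM in rFGF4 mice 1, 2, 3 and 5 and 20.1, 14.7, 9.88 and 15.2 in model mice 2, 3, 4 and 5. The treated mice held both the highest and the lowest value, and the log2 fold change was -0.029 (95% interval -0.80 to 0.74), which turned to 0.065 with scaling to the total without mitochondrial transcripts. The ratio of *Scd1* to *Scd2* was 0.559, 2.99, 3.77 and 0.955 in rFGF4 mice 1, 2, 3 and 5 and 1.72, 0.352, 0.811 and 1.58 in model mice 2, 3, 4 and 5, a difference of 0.74 in its mean log2 that was within the spread of the mice (p = 0.429, two-sided exact permutation test).

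The transcription factors did not pass the test either. *Srebf1* had 8.73, 5.20, 3.47 and 3.70 FPKM in rFGF4 mice 1, 2, 3 and 5 and 5.70, 3.22, 2.65 and 6.39 in model mice 2, 3, 4 and 5. Apart from rFGF4 mouse 1, the highest, the treated mice lay within the model range. Its log2 fold change of 0.18 (95% interval -0.55 to 0.91; limma, unadjusted p = 0.582) was -0.053 without rFGF4 mouse 1. An exon of *Rai1* on the opposite strand overlaps *Srebf1*, and the strand used in counting is not given in the sources used here. *Mlxipl* had 31.9, 43.9, 57.7 and 38.1 FPKM in rFGF4 mice 1, 2, 3 and 5 and 32.5, 44.7, 39.3 and 29.5 in model mice 2, 3, 4 and 5. Only rFGF4 mouse 3 exceeded all model mice, and the log2 fold change was 0.21 (95% interval -0.26 to 0.68; limma, unadjusted p = 0.332). It was 0.34 without rFGF4 mouse 1, 0.061 without rFGF4 mouse 3 and 0.085 with the median-ratio scaling. Exons of *Elovl6*, *Mlxipl* and *Me1* each overlap 1 gene on the opposite strand as well.

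In order of mean FPKM over the 8 mice the genes were *Me1* (51.8), *Mlxipl* (39.7), *Acly* (27.1), *Scd1* (21.4), *Scd2* (15.3), *Fasn* (5.04), *Srebf1* (4.88), *Acacb* (4.12), *Elovl6* (3.66) and *Acaca* (0.642). The fall from *Scd2* to *Fasn* and that from *Elovl6* to *Acaca* held in 8 of 8 mice, and those from *Me1* to *Mlxipl* and from *Mlxipl* to *Acly* in 7 of 8. *Acly* was above *Scd1* in 5 of 8 mice, *Scd1* above *Scd2* in 4, *Fasn* above *Srebf1* in 4, *Srebf1* above *Acacb* in 4 and *Acacb* above *Elovl6* in 4, so these neighbours did not differ beyond their spread. Among the tested genes *Me1* stood at the 94.4th percentile of mean FPKM, *Fasn* at the 54.5th and *Acaca* at the 4.34th.

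The other genes of the pathway were read in 6 lists of 73 genes, of which 72 were in the table and 68 were tested. Among these 68, 5 had an unadjusted p under 0.05 with higher values after rFGF4 and 0 with lower values, beside the 3.56% and 1.06% of all tested genes (limma; 0 adjusted under 0.05). Their median log2 fold change was 0.094, beside 0.086 for all tested genes. In 4 genes the groups did not overlap, all with the treated mice above, beside 2.66% of all tested genes. The 5 genes were *Acsl4*, *Gpat4*, *Rxra*, *Hsd17b12* and *Slc25a1*, and *Acsl4* and *Hsd17b12* also passed the fold of the threshold. In the list of acyl-CoA activation and triglyceride synthesis, 16 of 17 genes were above 0, beside 67.1% of all tested genes, with a median of 0.21. With the median-ratio scaling, 11 of 17 were above 0, beside 47.3% of all tested genes, with a median of 0.11. The medians of the other lists ran from -0.0076 for acetyl-CoA and NADPH supply to 0.097 for SREBP processing and lipogenic transcription, and with the median-ratio scaling all 5 were below 0, from -0.077 to -0.021. Leaving out 1 mouse also turned the sign of some of them, as for acetyl-CoA and NADPH supply (0.089 without rFGF4 mouse 1) and mitochondrial fatty acid synthesis (-0.085 without rFGF4 mouse 2).

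**Figure D3:**
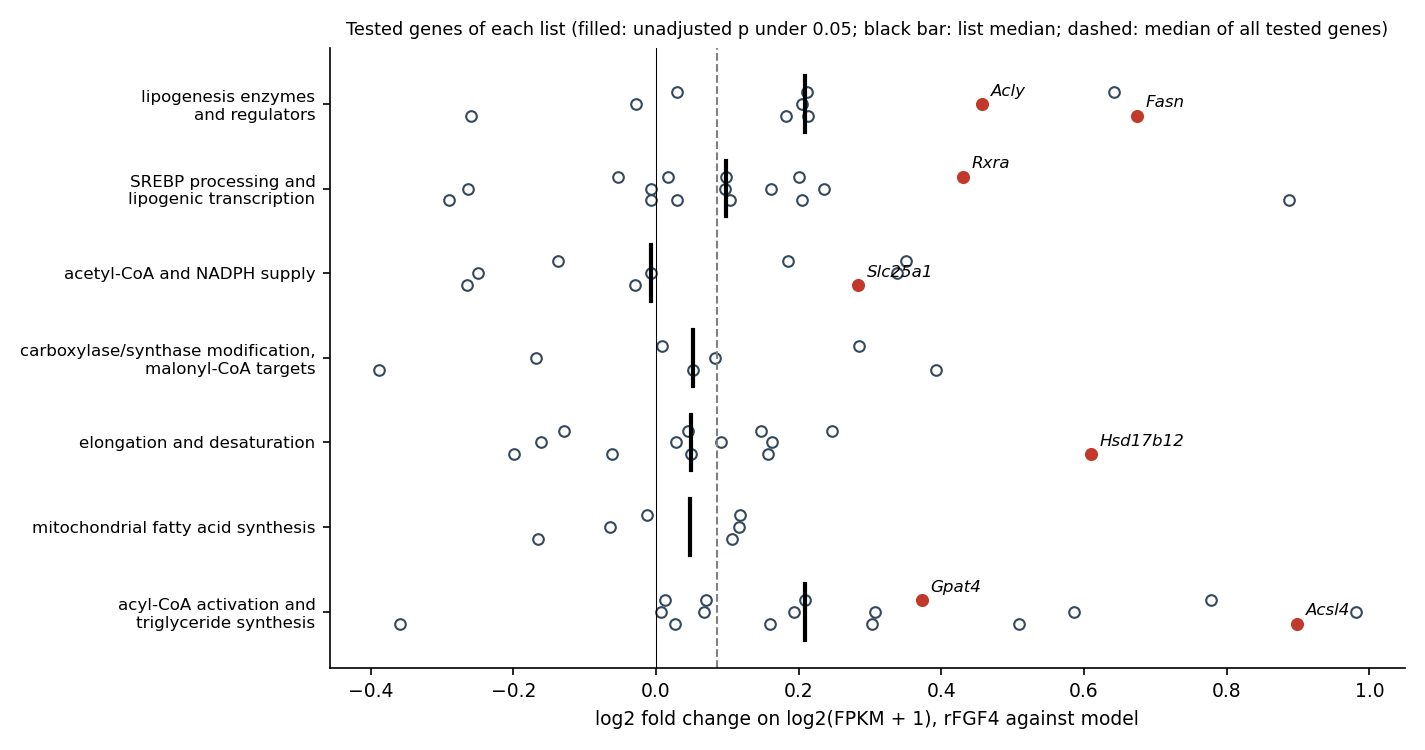
Log2 fold change (horizontal axis, rFGF4-treated against model mice) of every tested gene in the 10 lipogenesis genes and 6 related lists, filled where the unadjusted p was under 0.05, with the list medians as black bars and the median of all tested genes, 0.086, as a dashed line. The filled points, *Fasn*, *Acly*, *Rxra*, *Slc25a1*, *Hsd17b12*, *Gpat4* and *Acsl4*, all lie to the right of 0.

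*Acsl4*, which activates long polyunsaturated fatty acids with coenzyme A, had 17.9, 13.7, 11.8 and 5.96 FPKM in rFGF4 mice 1, 2, 3 and 5 and 5.36, 6.07, 4.39 and 7.43 in model mice 2, 3, 4 and 5. As with *Fasn*, rFGF4 mouse 5 alone lay in the model range, and the log2 fold change was 0.90 with a standard error of 0.30 (limma, unadjusted p = 0.0162; two-sided exact permutation test, p = 0.0857). Without rFGF4 mouse 1 and model mouse 4 it was 0.59 (limma, unadjusted p = 0.0925). *Hsd17b12*, the ketoacyl-CoA reductase of the elongation cycle, had 33.1, 31.4, 30.5 and 21.3 FPKM in rFGF4 mice 1, 2, 3 and 5 and 21.2, 11.8, 22.1 and 20.8 in model mice 2, 3, 4 and 5. Its log2 fold change of 0.61 (limma, unadjusted p = 0.0261) was 0.41 without model mouse 3, and its unadjusted p was 0.05 or more without rFGF4 mouse 1, 2 or 3. It was 0.48 with the median-ratio scaling (limma, unadjusted p = 0.0586). *Gpat4*, which adds the first acyl chain to glycerol 3-phosphate, ran from 10.1 to 14.6 FPKM in treated and from 9.11 to 10.2 in model mice, a log2 fold change of 0.37 (limma, unadjusted p = 0.0235) whose unadjusted p was 0.05 or more without rFGF4 mouse 2 or model mouse 2, 3 or 4, or without rFGF4 mouse 1 and model mouse 4 together.

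*Slc25a1* carries citrate, the substrate of ATP citrate lyase, out of the mitochondrion. It ran from 39.4 to 47.9 FPKM in treated and from 33.8 to 40.3 in model mice, a log2 fold change of 0.28 (limma, unadjusted p = 0.0318) that was 0.16 with scaling to a common median ratio (limma, unadjusted p = 0.339), and its unadjusted p was under 0.05 only without rFGF4 mouse 2 or model mouse 4 among the 8 mice left out in turn. *Rxra* encodes the receptor that pairs with the liver X receptors on the *Srebf1* gene. *Rxra* had 16.5, 22.4, 25.1 and 16.1 FPKM in rFGF4 mice 1, 2, 3 and 5 and 14.8, 13.7, 15.0 and 13.8 in model mice 2, 3, 4 and 5. All treated mice were above all model mice, with a log2 fold change of 0.43 (limma, unadjusted p = 0.0252; two-sided exact permutation test, p = 0.0286, the smallest that 4 mice against 4 allow). It was 0.31 with scaling to a common median ratio (limma, unadjusted p = 0.187), and the unadjusted p was 0.05 or more without rFGF4 mouse 2 or 3 or model mouse 3 or 5.

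The other 3 genes without overlap were *Insig2*, *Hacd3* and *Lpin2*, named here after their values were seen. *Insig2*, which retains SREBP precursors in the endoplasmic reticulum, ran from 9.74 to 11.6 FPKM in treated and from 8.68 to 9.63 in model mice, with a log2 fold change of 0.21 (limma, unadjusted p = 0.0800). The log2 fold changes were 0.15 for *Hacd3*, a dehydratase of the elongation cycle, and 0.59 for *Lpin2*, a phosphatidate phosphatase (limma, unadjusted p = 0.167 and 0.0648). *Lpin2* was at 6.40 FPKM in rFGF4 mouse 1 and at 2.08 to 2.67 in the other treated mice, and without that mouse its log2 fold change was 0.30. In the lists with no gene under 0.05, *Cpt1a*, the entry step of mitochondrial fatty acid oxidation, had the largest log2 fold change among malonyl-CoA targets and modifying enzymes, 0.39 (limma, unadjusted p = 0.0839), and *Cbr4* among mitochondrial fatty acid synthesis, -0.17 (limma, unadjusted p = 0.186). *Cpt1b*, the muscle form of the same enzyme and named after its value was seen, was at -0.39 (limma, unadjusted p = 0.230). *Cpt1a* was at 0.25 without model mouse 5 and at 0.26 with the median-ratio scaling (limma, unadjusted p = 0.215 and 0.393). It was 0.51 without rFGF4 mouse 1 and 0.51 without model mouse 4 (limma, unadjusted p = 0.0293 and 0.0365). Without both of these mice it was 0.63 (limma, unadjusted p = 0.0095).

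Of the pathway genes that did not pass, *Mid1ip1*, *Plin2*, *Insig1*, *Acsl1* and *Gpat3* are given after their values were seen. *Mid1ip1*, whose product promotes the assembly of acetyl-CoA carboxylase into its active polymer, had 40.2, 40.6, 29.7 and 12.2 FPKM in rFGF4 mice 1, 2, 3 and 5 and 13.9, 11.9, 11.7 and 23.2 in model mice 2, 3, 4 and 5. The log2 fold change was 0.89 (limma, unadjusted p = 0.0512). The unadjusted p was under 0.05 in 5 alternatives, which were both scalings, array weights and leaving out rFGF4 mouse 5 (1.26; limma, unadjusted p = 0.0015) or model mouse 5. *Plin2*, a coat protein of lipid droplets, had 63.9, 65.3, 51.3 and 16.8 FPKM in the treated and 14.6, 30.0, 25.5 and 19.7 in the model mice, a log2 fold change of 0.98 (limma, unadjusted p = 0.0519). Its unadjusted p was under 0.05 with scaling without mitochondrial transcripts, with array weights, and without rFGF4 mouse 5 (1.42; limma, unadjusted p = 0.00058) or model mouse 3. In both genes rFGF4 mouse 5 again lay within the model range. *Insig1*, the partner of *Insig2* and a target of SREBP, was at 24.0 FPKM in model mouse 2 and at 6.95 to 9.20 FPKM in the other 7 mice. Model mouse 2 had the highest *Scd1* of its group, but *Fasn* and *Srebf1* were highest in model mouse 5 and *Acly* in model mouse 4. The log2 fold change of *Insig1* was -0.29 (limma, unadjusted p = 0.432) and 0.097 without model mouse 2. *Acsl1*, which activates long-chain fatty acids, and *Gpat3*, a glycerol 3-phosphate acyltransferase, were at 0.78 and 0.51 (limma, unadjusted p = 0.0918 and 0.187).

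The genes whose values followed *Fasn* most closely over the 8 mice, of 13190 tested genes outside the 10 with a mean of at least 1 FPKM, were *Atf6*, *Psme3*, *Metap1*, *Carmil1* and *Utp6*, with Pearson's r from 0.987 to 0.991 on the log2(FPKM + 1) scale. Such values are the top of a search over many genes and are a description with no test. *Atf6*, a transcription factor of the unfolded protein response, had 6.24, 6.52, 5.85 and 4.84 FPKM in rFGF4 mice 1, 2, 3 and 5 and 4.92, 4.21, 4.46 and 5.19 in model mice 2, 3, 4 and 5. On the same measure *Acly* stood at 0.941 and *Elovl6* at 0.890 with *Fasn*. For *Scd1*, *Tstd1*, *Srd5a2*, *Tbc1d5* and *Caap1* were among the 5 closest genes, with r from 0.903 to 0.942.

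Fat tissue around the kidney is rich in lipogenic transcripts, and its markers were read beside these results. *Adipoq*, *Plin1*, *Lep*, *Retn*, *Cfd* and *Adrb3*, which define white adipocytes, reached at most 0.186 FPKM in any mouse. *Cidec* is left out of that maximum, and with it 7 of the 10 white adipocyte markers were below the filter. The 10 markers summed to 13.0 to 24.1 FPKM in treated and 17.2 to 20.8 in model mice. Of these, 3 were tested, and *Plin4* and *Car3* were at 0.35 and 0.52 on the log2 scale (limma, unadjusted p = 0.216 and 0.287). The one that passed the test was *Fabp4*, which endothelial cells also make and which had 6.97, 6.44, 5.69 and 13.4 FPKM in rFGF4 mice 1, 2, 3 and 5 and 10.8 to 16.5 in model mice (log2 fold change -0.73; limma, unadjusted p = 0.0207). Of the 4 brown adipocyte markers only *Cox7a1* was tested, and the list summed to 5.89 to 16.0 FPKM in treated and 11.3 to 21.4 in model mice. The 6 hepatocyte markers summed to 271 to 525 FPKM in treated and 180 to 294 in model mice, most of it *Serpina1a*, which the mouse proximal tubule also expresses (log2 fold change 0.60; limma, unadjusted p = 0.0481), and they had a median log2 fold change of 0.60 over the 5 that were tested (0.27 without rFGF4 mouse 1 and 0.37 without rFGF4 mouse 2). *Ttr* ran from 24.6 to 95.9 FPKM in treated and from 2.25 to 65.2 in model mice (log2 fold change 1.93; limma, unadjusted p = 0.0677), *Fgb* from 0.230 to 19.9 and from 0.317 to 5.02, *Alb* from 8.38 to 11.9 and from 2.62 to 15.6, and *Apoa2* from 2.47 to 7.81 and from 5.13 to 8.71 (log2 fold change -0.14), while *Cps1* was at most 0.150 FPKM. The part of liver transcripts in the results was not tested.

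Of the renal markers, the 6 proximal tubule genes had a median log2 fold change of -0.40, the 8 distal nephron genes -0.26, the 4 podocyte genes 0.20 and the 4 endothelial genes -0.20, with 0 genes at an unadjusted p under 0.05 in any of these lists. Without rFGF4 mouse 1 the proximal tubule median turned to 0.093 and the distal nephron median was -0.060. With 1 mouse left out, the podocyte median ran from 0.11 (without model mouse 2) to 0.34 (without model mouse 3) and the endothelial median from -0.31 (without model mouse 3) to -0.14 (without model mouse 2). The 4 macrophage markers summed to 246 FPKM in rFGF4 mouse 1 and 277 in model mouse 5 against 16.3 to 105 in the other 6 mice, and the 4 B and plasma cell markers to 22887 FPKM in model mouse 5 against 23.4 to 2713 in the others. The macrophage median was 0.39, and with 1 mouse left out it ran from -0.048 (without rFGF4 mouse 1) to 1.10 (without model mouse 5). Over the 3 tested B and plasma cell genes it was 0.11, from -1.23 (without model mouse 4) to 1.79 (without model mouse 5). rFGF4 mouse 1 was also the highest mouse for *Acly*, *Scd2* and *Srebf1* and the lowest for *Acacb*. The part of these cell types in the results was not tested.

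**Figure D4:**
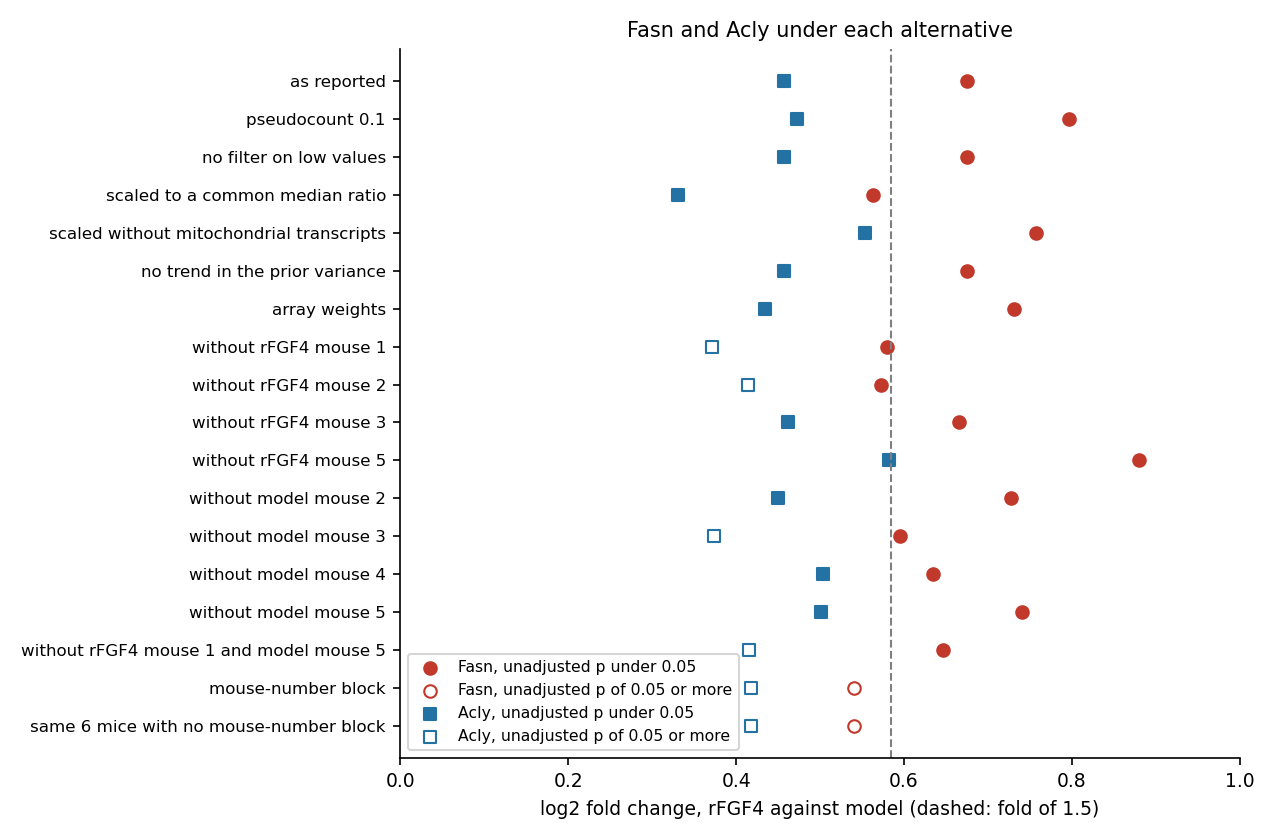
Log2 fold change of *Fasn* (circles) and *Acly* (squares) as reported and under each alternative (vertical axis), filled where the unadjusted p was under 0.05, with a dashed line at a fold of 1.5. *Fasn* lies between 0.54 and 0.88 and *Acly* between 0.33 and 0.58, and *Fasn* drops under the dashed line in 5 of the alternatives.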

How the data were processed

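Poly(A) RNA of kidney was sequenced with paired ends, 1 library per mouse. As deposited by the authors, the values are FPKM per gene, made by assembling the mapped reads with StringTie and merging transcripts with gffcompare. The submitters' processing notes name Bowtie 0.12.2, HISAT2 2.0, StringTie 1.3.0 and the build mm8 without their roles. The identifiers are those of Ensembl, and 99.5% of them were found in GENCODE M21 on GRCm38, from which gene positions were taken. A value of 0.0001 stands in place of 0. The authors' own fold changes, p-values and q-values in the table were not used. Relative depth, read from the commonest ratio of low FPKM values, was 0.905 to 1.09 in rFGF4-treated and 1 to 1.12 in model mice, taking model mouse 2 as 1.

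The genes, lists and tests were chosen with earlier results of these data known. Mice were grouped by the labels. Genes with at least 0.5 FPKM in 4 libraries were tested with limma 3.58.1 in R 4.3.3 on log2(FPKM + 1), a scale that understates changes of low genes, letting the prior variance follow the mean level, and p-values were adjusted by Benjamini-Hochberg over all 15150 genes. Single values were compared by exact permutation over 70 assignments. Nothing in the labels says how the mice were housed or matched, so p-values measure the spread between these 8 mice. The procedure was tested on simulated data. Named were the 10 genes, pathway genes with an unadjusted p under 0.05 or else the largest change of their list, the 5 genes nearest to *Fasn* and to *Scd1*, and markers, of which 1 gene near *Scd1* is not reported here; other names are said to be chosen later. The alternatives were a pseudocount of 0.1, no filter, 2 other scalings, no variance trend, array weights, each mouse left out and a mouse-number block; leaving out 2 mice together and the block's 6 mice without the block were added after seeing the data. Promoters are RefSeq entries on GRCm38.p6. Figures were drawn with matplotlib 3.10.9.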

Additional observations from a re-analysis of the deposited data

Results flagged for a closer look

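Among 46 groups of 4 mice, 1 mouse stood apart in 3 by Dixon's test at the 95% level, which divides the distance between an extreme mouse and its neighbour by the whole range on the log2(FPKM + 1) scale, and chance alone marks about 5% of groups. All 3 were model mouse 3, the lowest of its group: *Elovl6* at 2.58 FPKM against 3.51 to 3.62 in the other model mice (0.906 of the range), *Hsd17b12* at 11.8 against 20.8 to 22.1 (0.900) and *Insig2* at 8.68 against 9.58 to 9.63 (0.950). The 3 genes belong to elongation of fatty acids and SREBP retention, and *Fasn*, *Acly* and *Scd1* were also lowest in this mouse among all 8, without passing the limit. Of the 10 lipogenesis genes, model mouse 3 was the lowest of its group for 4 and the highest for 1, *Mlxipl*. Without model mouse 3, the log2 fold change was 0.12 for *Elovl6*, 0.41 for *Hsd17b12*, 0.17 for *Insig2* and 0.60 for *Fasn*.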

How the results depend on the processing

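*Fasn* was at 0.57 to 0.88 and *Acly* at 0.37 to 0.58 on the log2 scale with each mouse left out, and both kept their direction under all alternatives. Without 1 mouse, *Elovl6* ran from 0.12 to 0.34. Of the 10 genes, *Scd2* (-0.32 to 0.21), *Acaca* (-0.080 to 0.20) and *Srebf1* (-0.053 to 0.35) changed sign in part of the fits. Among the pathway genes followed in these fits *Insig1* did (-0.45 to 0.10), and not all pathway genes were followed in this way. Of the 10 genes, 0 to 1 stayed at the threshold, 0 without rFGF4 mouse 1 or rFGF4 mouse 2, and 1 to 3 had an unadjusted p under 0.05, while the pathway lists had 2 to 9 such genes. Over all tested genes 188 (without rFGF4 mouse 2) to 580 (without rFGF4 mouse 5) were at the threshold, and 0 to 1 had an adjusted p under 0.05 (limma, Benjamini-Hochberg).

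With the median-ratio scaling, 0 of the 10 genes were at the threshold, the median was -0.012 for all tested genes and -0.016 for the pathway lists, and *Acaca* was at -0.0010. Scaling without mitochondrial transcripts gave 0.065 for *Scd2* and 9 pathway genes under 0.05. Array weights gave 12 such genes and 496 genes at the threshold, and no filter gave 1 gene with an adjusted p under 0.05. Without rFGF4 mouse 1 and model mouse 5, 1 of the 10 genes was under 0.05 and *Acly* was at 0.42.

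Mouse numbers are shared by 3 pairs, whose deviations from the group means correlated at -0.23, -0.16 and -0.39 over genes. Pairs of unlike number ran from -0.56 to 0.57, so these values cannot settle whether the numbers pair the mice. With the replicate block, which keeps 6 mice, *Fasn* was at 0.54 and *Acly* at 0.42 (limma, unadjusted p = 0.123 and 0.118), *Acaca* at -0.045 and *Srebf1* at -0.23. In that fit 0 of the 10 genes were at the threshold and 0 under 0.05, and the median of all tested genes was -0.019. The 3 pathway genes under 0.05 included *Rxra* and *Cpt1a* (0.53 and 0.63, limma, unadjusted p = 0.0443 and 0.0154). *Acsl4*, *Hsd17b12*, *Gpat4* and *Slc25a1* were not among them (limma, unadjusted p = 0.148, 0.0879, 0.185 and 0.132). The same 6 mice with no block (without rFGF4 mouse 1 and model mouse 4) gave the same fold changes and median, with 0 of the 10 genes at the threshold and 0 under 0.05. The causes of these changes were not tested. Depth is unknown, so counting error could not be set beside the spread between mice, also for *Acaca*, the least abundant of the 10.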
